A study of Mus musculus with 11 samples.

Results

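The Mage and Xlr genes are gene families that lie mostly on the mouse X chromosome and include groups of near-identical copies, such as the Xlr3, Xlr4 and Xlr5 genes. Members were taken by symbol from the deposited gene count table, as Magea to Mageh genes with a number and all Xlr genes, without Magel2. This gave 31 of 25239 genes, of which 21 were Mage and 10 were Xlr genes. MAGE proteins share a MAGE homology domain, through which they bind RING-type E3 ubiquitin ligases. The Magea and Mageb genes are known for expression in testis and, in human, in tumours, where loss of promoter DNA methylation accompanies their expression, whereas the Maged, Magee, Magef and Mageh genes are expressed in many tissues. The Xlr (X-linked lymphocyte-regulated) genes encode nuclear proteins with a Cor1 domain, related to the synaptonemal complex protein SYCP3, and Xlr3b, Xlr4b and Xlr4c are imprinted in mouse brain, where the maternal copy is the more active.

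Poly(A)-selected RNA was sequenced from J1 mouse embryonic stem cells at day 0, with 1 library for each of the genotypes TKO_602, TKO_FL and TKO. TKO cells are called DNMT TKO in the labels of other samples, and the design text joins both other names to TKO with a plus sign, so the TKO background is shared by all 3 lines. DNMTs are DNA methyltransferases, which methylate cytosine. The sources used here do not explain the suffixes of TKO_602 and TKO_FL and do not say whether a line is 1 clone. Cells grew on mouse embryonic fibroblast feeders in serum with LIF. The other 8 samples, immunoprecipitations of modified DNA, were not analysed here.

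The libraries held 43158441 reads in genes for TKO_602, 19573689 for TKO_FL and 21133660 for TKO. Dnmt1, the maintenance methyltransferase, was at 2444 CPM (read counts scaled to library size, with TMM factors) in TKO_602, 3364 CPM in TKO_FL and 159 CPM in TKO. Dnmt3b, a de novo methyltransferase, was at 11.9, 34.0 and 71.7 CPM in the same order. Dnmt1 was thus high in TKO_602 and TKO_FL, and Dnmt3b was lowest in TKO_602. All 8 embryonic stem cell markers examined were detected, with summed levels of 7102, 7058 and 5710 CPM in TKO_602, TKO_FL and TKO. Markers of fibroblast feeders summed to 502, 349 and 655 CPM, those of primitive endoderm to 447, 234 and 1640 CPM, and those of germ cells to 230, 173 and 130 CPM. In bulk RNA, fewer cells of a type and less RNA per cell cannot be told apart. With 1 library per genotype there is no replicate check, no test and no p-value. Each interval given is a 95% exact binomial one and covers counting error only. The alignment of TKO_602 came from another folder than the others, per the file headers, so a difference in processing and the genotype cannot be told apart.

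Some of these copies are alike enough that reads can map to several of them. The counting command recorded with the table had no option for such reads, and they are left out by default, so the level of each copy and the division among copies are uncertain. The likeness is visible in the promoters of the cluster of Xlr3, Xlr4 and Xlr5 genes, which the results below turn on. The 5 windows below are from RefSeq (GRCm38.p6, 250 bases before to 50 bases after the annotated start, 5′ to 3′ on the strand of the gene), with CG dinucleotides, the sites of most cytosine methylation, in capitals.
Xlr3a: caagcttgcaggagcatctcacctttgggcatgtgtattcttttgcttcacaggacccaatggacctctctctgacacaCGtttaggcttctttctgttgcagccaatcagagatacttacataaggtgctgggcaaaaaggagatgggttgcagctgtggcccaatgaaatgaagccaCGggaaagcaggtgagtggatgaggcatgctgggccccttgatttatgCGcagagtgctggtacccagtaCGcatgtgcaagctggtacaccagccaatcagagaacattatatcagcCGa
Xlr3b: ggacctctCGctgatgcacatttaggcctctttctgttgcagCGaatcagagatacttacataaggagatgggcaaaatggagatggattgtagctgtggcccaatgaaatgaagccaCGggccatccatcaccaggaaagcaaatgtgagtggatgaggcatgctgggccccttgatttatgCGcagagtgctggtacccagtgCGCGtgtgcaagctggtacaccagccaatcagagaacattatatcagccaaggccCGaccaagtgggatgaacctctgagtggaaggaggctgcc
Xlr3c: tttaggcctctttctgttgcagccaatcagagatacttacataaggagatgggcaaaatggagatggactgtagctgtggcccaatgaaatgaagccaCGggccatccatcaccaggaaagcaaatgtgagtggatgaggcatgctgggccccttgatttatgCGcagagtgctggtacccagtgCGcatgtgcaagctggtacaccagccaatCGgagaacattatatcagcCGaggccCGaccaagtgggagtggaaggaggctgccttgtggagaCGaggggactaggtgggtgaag
Xlr4b: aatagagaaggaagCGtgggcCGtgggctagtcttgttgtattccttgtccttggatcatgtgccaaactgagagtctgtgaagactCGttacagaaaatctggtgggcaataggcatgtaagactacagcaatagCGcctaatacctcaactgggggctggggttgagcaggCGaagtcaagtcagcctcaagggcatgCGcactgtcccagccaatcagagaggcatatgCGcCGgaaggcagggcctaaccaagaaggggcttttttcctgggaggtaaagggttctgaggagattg
Xlr5a: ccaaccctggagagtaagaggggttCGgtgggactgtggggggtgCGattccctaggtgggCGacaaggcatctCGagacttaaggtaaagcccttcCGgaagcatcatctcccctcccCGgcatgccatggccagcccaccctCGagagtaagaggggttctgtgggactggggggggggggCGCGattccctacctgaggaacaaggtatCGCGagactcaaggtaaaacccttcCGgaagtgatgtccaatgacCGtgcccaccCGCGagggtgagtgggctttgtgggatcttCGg

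These windows are Xlr3a chrX:73097046-73097345 (minus strand), Xlr3b chrX:73191929-73192228 (plus strand), Xlr3c chrX:73265341-73265640 (minus strand), Xlr4b chrX:73214083-73214382 (plus strand) and Xlr5a chrX:73117653-73117952 (minus strand). Xlr3a, Xlr3b and Xlr3c are shown because their levels parted between libraries, Xlr4b and Xlr5a as the members of their subgroups with the largest fold in TKO_602 against TKO. In their aligned parts, Xlr3b and Xlr3c were 98.1% identical over 269 bases, Xlr3a and Xlr3c 95.4% over 219 bases and Xlr3a and Xlr3b 93.7% over 239 bases. The Xlr4 windows were 98.1% to 98.9% identical in pairs, and Xlr5a and Xlr5b were identical at all 255 aligned bases. The Xlr5c window had too few bases aligned to either of them for an identity to be given. CG dinucleotides numbered 5 for Xlr3a, 7 for Xlr3b and Xlr3c, 8 for Xlr4a and Xlr4b, 7 for Xlr4c, 16 for Xlr5a and Xlr5b and 1 for Xlr5c, against a median of 7 over all 32851 promoter windows. A RefSeq window was found for 28 of the 31 members. The letters CCAATCAG, searched on both strands after the sequences had been seen, occurred in 7 of the 28 members with a window, namely Xlr and all Xlr3 and Xlr4 copies, against 4.1% of all windows and 6.2% of the 1223 windows on chromosome X. The windows are alike among the Xlr3 copies and among the Xlr4 copies, so these 7 matches are not independent and cannot be weighed against those shares. CCAATCAG contains the shorter CCAAT, which 17 members held, against 37.4% of all windows and 45.0% of those on chromosome X. TCCCGC, the core letters of the E2F6 motif, occurred in Maged1, Maged2, Magee2, Mageh1 and Xlr. It was in 20.0% of all windows and 18.2% of those on chromosome X. Members counted if any of their windows matched, and for Maged2 the match lay only in a window 638 bases from the annotated start. The E-box CACGTG occurred in 0 members, against 7.2% of all windows and 8.6% of those on chromosome X. TCCCGC and CACGTG each contain a CG. These matches describe the letters only.

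Of the 31 members, 22 reached 1 CPM in at least 1 library. These were all 10 Xlr genes and 12 of the 21 Mage genes, and only genes with at least 1 CPM in either library of a comparison were counted there. The other 9 members were Mageb3, Magea10, Mageb1, Mageb2, Mageb5, Mageb18, Magea6, Magea3 and Magea1. They belong to the testis-type Magea and Mageb groups and had at most 26 reads in TKO_602, 9 in TKO_FL and 16 in TKO. Mageb5 had 0 reads in all libraries, which allows up to 0.134 CPM in TKO_602, 0.312 CPM in TKO_FL and 0.290 CPM in TKO (6 reads, or 3 read pairs). Mageb2 also had 0 reads, but it shares 1986 exonic bases with Mageb1, where reads are assigned to neither gene, so the counts of this pair set no limit on their RNA.

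**Figure D1:**
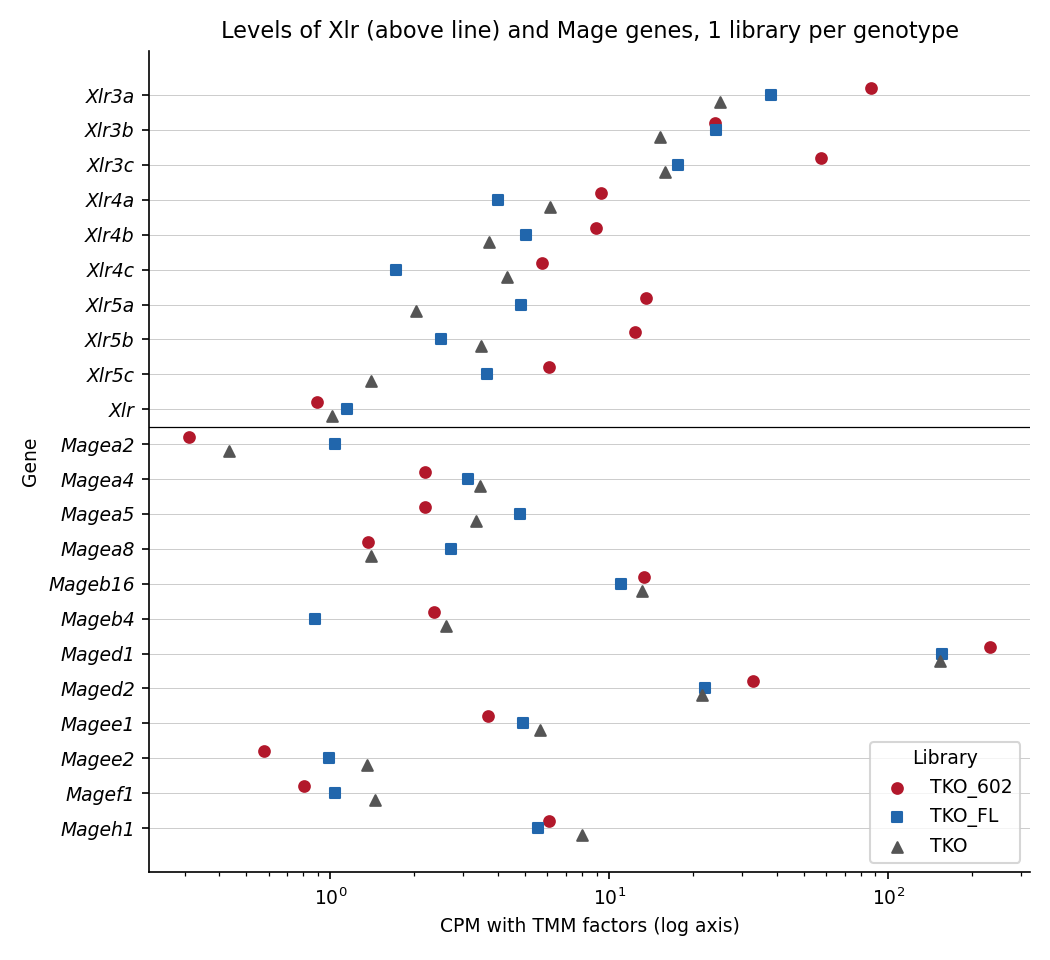
Level of the 22 measured Xlr and Mage genes in CPM with TMM factors (log axis), with 1 point per library for TKO_602, TKO_FL and TKO. The TKO_602 point lies right of both others for 8 of the 10 Xlr genes, Xlr3b and Xlr being the exceptions, and Maged1 is the highest member in all 3 libraries.

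In TKO_602 against TKO, the threshold of 2-fold (log2 of the ratio of CPM + 1) was passed upward by 6 of 21 measured members and downward by 0. Over all 13748 measured genes, 19.0% passed, 11.0% upward and 8.06% downward, and over 492 other genes of chromosome X, 18.5% passed, 7.11% upward and 11.4% downward. All 6 were Xlr genes (Xlr3a, Xlr3c, Xlr4b, Xlr5a, Xlr5b and Xlr5c), so 6 of 10 Xlr genes and 0 of 11 measured Mage genes passed. The median log2 fold was 1.32 for the Xlr genes and -0.34 for the Mage genes, against 0.03 for all genes and -0.07 for the other X genes. Among the 512 measured genes of chromosome X, members included, Xlr5a ranked 5th in log2 fold, Xlr3c 7th, Xlr3a 8th, Xlr5b 11th, Xlr5c 12th and Xlr4b 36th. With a pseudocount of 5 CPM, Xlr4b and Xlr5c no longer passed, and 4 members did. The Xlr genes that passed are copies in the same cluster, so their calls, folds and ranks are not independent. Their count and median therefore cannot be weighed against the shares and medians of all genes or X genes. With reads summed over near-identical copies, 2 units passed (Xlr3 and Xlr5).

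In TKO_FL against TKO, 0 of 22 measured members were 2-fold higher or lower, against 5.74% of all 13563 genes (3.24% higher, 2.50% lower) and 5.50% of 491 other X genes (3.46% higher, 2.04% lower). The median log2 fold was 0.25 for Xlr genes and -0.14 for Mage genes, against 0.00 for all genes. The absence of calls depended on the pseudocount: with 0.1 CPM, 5 members passed (Xlr5a, Xlr5c and Magea2 upward, Xlr4c and Mageb4 downward), and by the authors' TPM, 2 passed (Xlr5c upward, Xlr4c downward). In TKO_602 against TKO_FL, 6 of 21 members passed upward and 0 downward. The share of all 13683 genes that passed was 11.6%, 6.75% upward and 4.87% downward, and that of 496 other X genes was 11.3%, 2.82% upward and 8.47% downward. The 6 were Xlr3a, Xlr3c, Xlr4a, Xlr4c, Xlr5a and Xlr5b, and the median log2 fold was 1.11 for Xlr genes and -0.18 for Mage genes. With a pseudocount of 5 CPM, 3 of them passed (Xlr3a, Xlr3c and Xlr5b). Any pair of the 3 comparisons shares a library, so their counts are not independent. The Xlr calls in TKO_602 against TKO_FL also come from copies of the same cluster and are not independent of each other. With reads summed over near-identical copies, 3 units passed there (Xlr3, Xlr4 and Xlr5).

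Counting intervals of the plain ratio, which has no pseudocount, lay above 0 on the log2 scale for 10 of 21 members and below 0 for 2 in TKO_602 against TKO, where 38.9% of all genes lay above and 35.7% below. In TKO_FL against TKO they lay above for 4 members (Xlr3a, Xlr3b, Xlr5a and Xlr5c) and below for 4 (Xlr4a, Xlr4c, Mageh1 and Mageb4), against 25.9% and 25.8% of all genes. In TKO_602 against TKO_FL they lay above for 11 members and below for 3, against 35.5% and 32.7% of all genes. Intervals that leave out 0 were thus common over all genes.

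**Figure D2:**
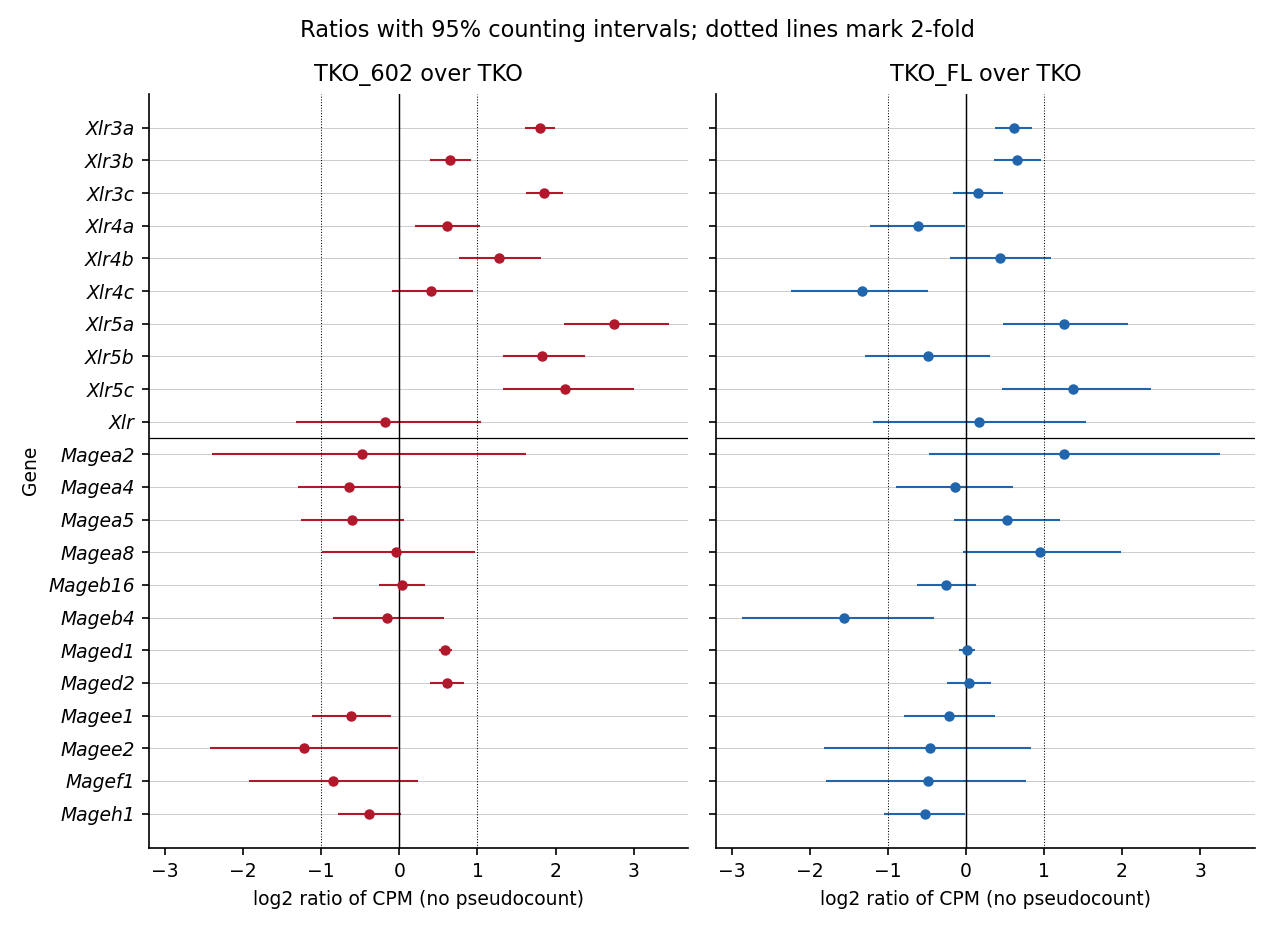
Log2 ratio of CPM without a pseudocount for each measured gene, with 95% counting intervals as bars, for TKO_602 over TKO (left) and TKO_FL over TKO (right). In the left panel the Xlr3, Xlr4 and Xlr5 genes lie above 0 and most Mage genes lie at or below 0, and in the right panel the Xlr copies lie on both sides.

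The 3 Xlr3 genes, 2 of which (Xlr3a and Xlr3c) passed the threshold in TKO_602, held most of the family's reads. Xlr3a (chrX:73086293-73097095, minus strand) was at 86.8 CPM in TKO_602, 38.0 CPM in TKO_FL and 24.9 CPM in TKO, a log2 fold of 1.76 in TKO_602 against TKO (plain log2 ratio 1.80, interval 1.61 to 2.00) and 0.59 in TKO_FL against TKO. Its level in TKO_602 was above that of both other libraries. Xlr3c (chrX:73254540-73265390, minus strand) was at 57.6 CPM in TKO_602, 17.7 CPM in TKO_FL and 15.9 CPM in TKO, log2 folds of 1.79 (plain ratio interval 1.62 to 2.10) and 0.15. Only TKO_602 stood apart for this copy, and its TKO_FL interval of -0.16 to 0.47 included 0.

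Xlr3b, a copy imprinted in brain (chrX:73192179-73202930, plus strand), did not share the pattern of Xlr3a and Xlr3c. It was at 23.9 CPM in TKO_602, 24.1 CPM in TKO_FL and 15.3 CPM in TKO, log2 folds of 0.61 and 0.63 against TKO and -0.01 in TKO_602 against TKO_FL. TKO_602 and TKO_FL differed for it by less than counting error, since the interval was -0.24 to 0.21. Of all reads on the 3 Xlr3 copies, Xlr3b therefore took 14.2% in TKO_602 (interval 13.1 to 15.4), 30.2% in TKO_FL (27.0 to 33.6) and 27.2% in TKO (23.7 to 31.1). Xlr3a took 51.6%, 47.6% and 44.4%, and Xlr3c 34.2%, 22.1% and 28.4%, in the same order. Gapdh, a glycolytic enzyme gene known for many processed pseudogenes in mouse, was at 170 CPM in TKO_602, 15.4 CPM in TKO_FL and 11.3 CPM in TKO. Actb and Ppia, which also have many processed pseudogenes, went the other way, with Actb at 1587, 2857 and 3538 CPM and Ppia at 1232, 2353 and 2571 CPM. These 3 genes were picked after their values were seen, and the part of copy handling in the Xlr result was not tested.

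All 3 Xlr5 genes passed the threshold in TKO_602 against TKO, and Xlr5a had the largest fold of the 21 members measured there. Xlr5a (chrX:73107635-73117702, minus strand) was at 13.6 CPM in TKO_602, 4.84 CPM in TKO_FL and 2.03 CPM in TKO, with a log2 fold of 2.27 in TKO_602 and 0.95 in TKO_FL against TKO. The reads behind these levels were 609, 93 and 42. Xlr5b (chrX:73148841-73158399, plus strand) was at 12.4, 2.50 and 3.48 CPM in TKO_602, TKO_FL and TKO, with log2 folds of 1.58 and -0.36. Xlr5c (chrX:73285197-73290515, minus strand) was at 6.07, 3.64 and 1.40 CPM, with log2 folds of 1.56 and 0.95. For all 3 copies TKO_602 was the highest library, while TKO_FL was above TKO for Xlr5a and Xlr5c and below it for Xlr5b. On TKO_FL over TKO the plain ratio intervals were 0.48 to 2.07 for Xlr5a, 0.46 to 2.37 for Xlr5c and -1.29 to 0.31 for Xlr5b.

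Of the Xlr4 genes, 1 of 3 passed the threshold in TKO_602 against TKO (Xlr4b) and 2 of 3 in TKO_602 against TKO_FL (Xlr4a and Xlr4c). Xlr4b (chrX:73214333-73222453, plus strand), imprinted in brain, was at 8.97 CPM in TKO_602, 5.04 CPM in TKO_FL and 3.72 CPM in TKO, with log2 folds of 1.08 and 0.36. Xlr4a (chrX:73074345-73082507, minus strand) was at 9.33, 4.004 and 6.13 CPM, with log2 folds of 0.53 and -0.51. Xlr4c (chrX:73234076-73243130, minus strand), also imprinted in brain, was at 5.71, 1.72 and 4.30 CPM, with log2 folds of 0.34 and -0.96. TKO_FL was thus the lowest library for Xlr4a and Xlr4c. Xlr4c had only 33 reads in TKO_FL, against 89 in TKO, and its TKO_FL interval was -2.24 to -0.48 on the plain ratio.

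Reads of near-identical copies were summed, which removes the split of counted reads among them but does not restore the reads left out because they map to several copies. How many were left out depends on read length and aligner settings, which the sources used here do not give, so the ratios of sums carry that uncertainty too. The 9 Xlr3, Xlr4 and Xlr5 genes together held 224 CPM in TKO_602, 102 CPM in TKO_FL and 77.1 CPM in TKO, a ratio of 2.91 in TKO_602 over TKO (log2 1.54, interval 1.43 to 1.65), 1.32 in TKO_FL over TKO (log2 0.40, interval 0.26 to 0.53) and 2.21 in TKO_602 over TKO_FL. Summed Xlr5 was at 32.0, 11.0 and 6.90 CPM, a ratio of 4.64 in TKO_602 over TKO, and summed Xlr3 was at 168, 79.8 and 56.0 CPM, a ratio of 3.00. Summed Xlr4 was at 24.0, 10.8 and 14.1 CPM, a ratio of 1.70 in TKO_602 over TKO and 2.23 in TKO_602 over TKO_FL. On the CPM + 1 scale of the threshold, the log2 folds were 0.72, under 2-fold, and 1.09, past it. The log2 intervals of the plain ratios were 0.50 to 1.04 and 0.85 to 1.48, and both include 2-fold. Among the 3 subgroups, TKO_FL was below TKO for Xlr4 alone, at a ratio of 0.761.

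**Figure D3:**
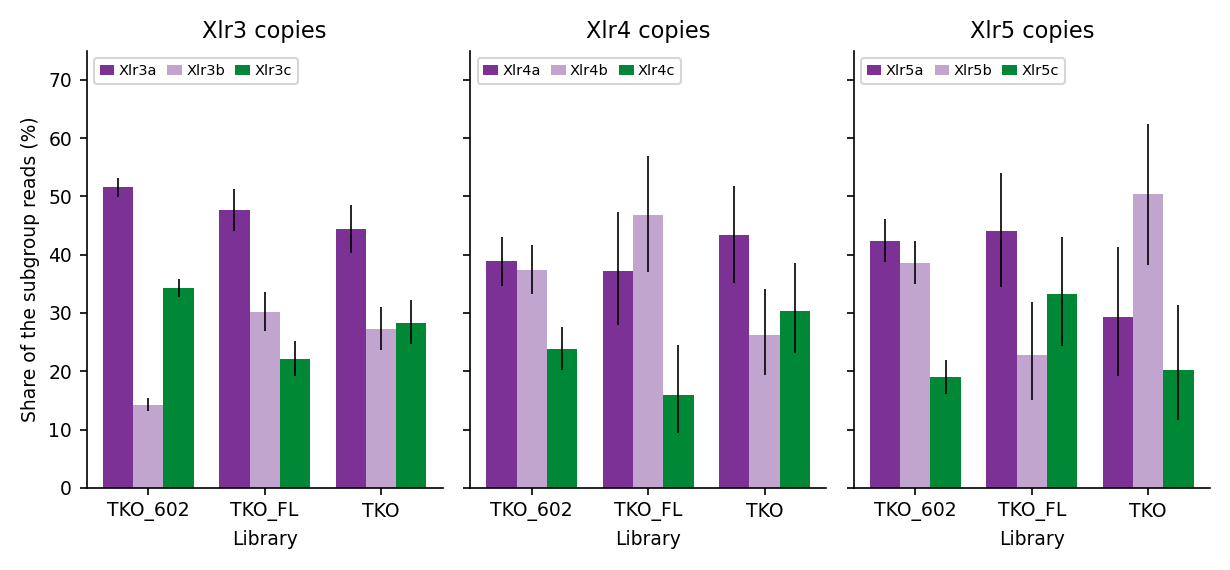
Share of the reads of the Xlr3, Xlr4 and Xlr5 copies taken by each copy, in percent, in TKO_602, TKO_FL and TKO, with exact 95% binomial intervals as lines. Xlr3b holds 14.2% of Xlr3 reads in TKO_602 against 30.2% in TKO_FL and 27.2% in TKO, and the shares of the Xlr4 and Xlr5 copies have wide intervals in TKO_FL and TKO.

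Xlr (chrX:53777118-53797706, minus strand), which lies outside the cluster, was near the minimum of 1 CPM, at 0.89 CPM in TKO_602, 1.14 CPM in TKO_FL and 1.01 CPM in TKO, with 40, 22 and 21 reads. Its log2 folds were -0.09 and 0.09, and its intervals include 0. On the same scale, the 9 cluster genes all lay above 0 in TKO_602 against TKO, between 0.34 and 2.27.

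Genes beside the cluster were examined by taking the nearest measured gene on each side of each block of members. Pnma3, of the paraneoplastic antigen family, lies 6.15 kb before Xlr4a and was at 1.45 CPM in TKO_602, 0.47 CPM in TKO_FL and 0.39 CPM in TKO, log2 folds of 0.82 and 0.08. F8a, which lies between Xlr4b and Xlr4c, was at 4.26, 1.87 and 3.38 CPM, log2 folds of 0.26 and -0.61. Zfp275, a zinc finger gene 52.1 kb after Xlr5c, was at 45.3, 33.1 and 41.1 CPM, log2 folds of 0.14 and -0.30. On the CPM + 1 scale these 3 genes did not pass the threshold in any comparison. In TKO_602 against TKO_FL, Pnma3, F8a and Zfp275 had log2 folds of 0.74, 0.87 and 0.44. Their plain ratio intervals there were 0.21 to 3.46, 0.45 to 2.00 and 0.27 to 0.64. All lay above 0, as for 35.5% of all genes. The plain log2 ratios of Pnma3 and F8a were 1.63 and 1.19, past 2-fold. For Pnma3 in TKO_602 against TKO, staying under 2-fold also rests on the pseudocount, which understates the fold of low genes. With 65 reads in TKO_602 and 8 in TKO, its plain log2 ratio was 1.91 (interval 0.42 to 3.87), in the range of the Xlr copies that passed. Beside members outside the cluster, some neighbours did pass on the CPM + 1 scale in TKO_602 against TKO, as did 19.0% of all genes. Upward, this was 1700013H16Rik, 19.3 kb from Xlr, at a log2 fold of 1.10. Downward, these were Nr0b1 beside Mageb4 (-1.58), Zdhhc15 beside Magee2 (-1.56) and Spin2c, the nearest measured gene before Magea8 (-1.09).

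**Figure D4:**
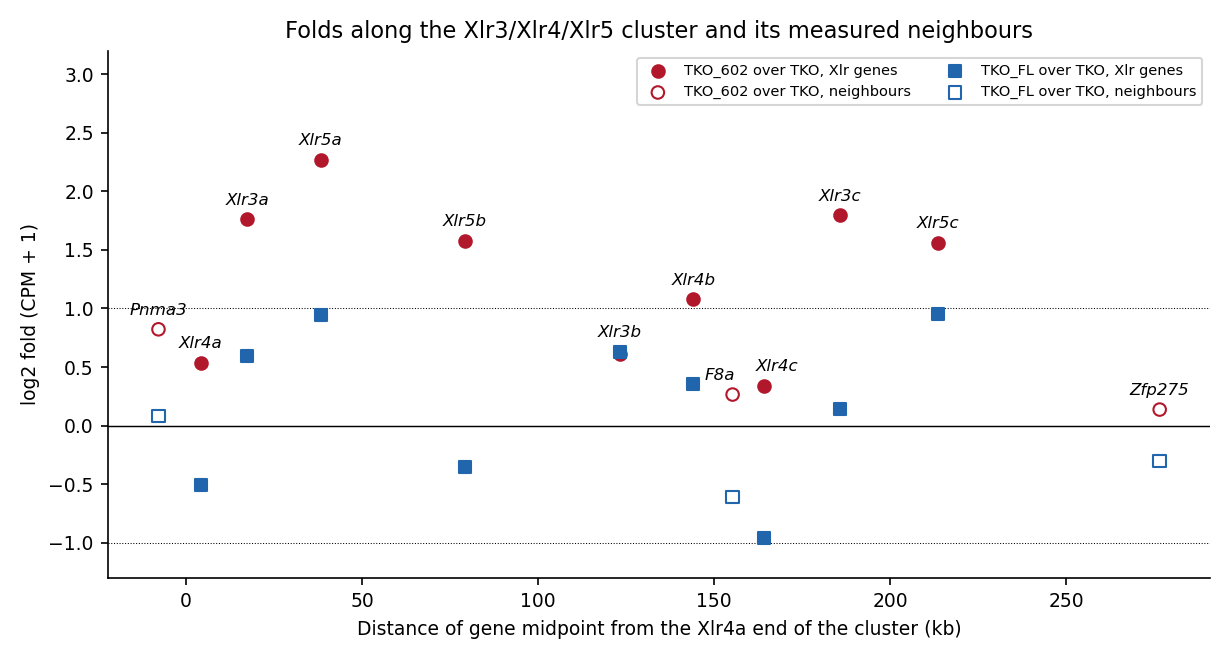
Log2 fold (CPM + 1) of TKO_602 over TKO and TKO_FL over TKO for the 9 Xlr genes of the cluster (filled) and the 3 nearest measured neighbours (open), by the distance in kb from the Xlr4a end. Dotted lines mark 2-fold, and 6 Xlr genes lie above the upper one in TKO_602 over TKO, while no TKO_FL point does.

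Among the broadly expressed Mage genes, Maged1 and Maged2 were the only ones with a counting interval above 0 in TKO_602 against TKO. Maged1 (chrX:94535474-94542025, minus strand), which in mammals binds the neurotrophin receptor p75 and takes part in apoptosis, was at 231 CPM in TKO_602, 156 CPM in TKO_FL and 154 CPM in TKO, log2 folds of 0.58 and 0.02. It is the deepest member, with 10360, 2996 and 3187 reads, and held 77.4% of all Mage reads in TKO_602, 72.5% in TKO_FL and 70.7% in TKO. Maged2 (chrX:150806421-150814345, minus strand), mutated in a human form of Bartter syndrome, was at 32.7, 22.1 and 21.4 CPM, log2 folds of 0.59 and 0.04. Both were about equal in TKO_FL and TKO and above them in TKO_602, at 1.51 times the TKO level for their sum, under the 2-fold threshold.

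The remaining broadly expressed genes had lower levels in TKO_602 than in TKO, and none passed 2-fold on the CPM + 1 scale. Magee1 (chrX:105120378-105123961, plus strand), whose protein associates with alpha-dystrobrevin, was at 3.68 CPM in TKO_602, 4.89 CPM in TKO_FL and 5.65 CPM in TKO, with a log2 fold of -0.51 in TKO_602 against TKO. Mageh1 (chrX:153036166-153037563, minus strand) was at 6.09, 5.56 and 7.97 CPM, log2 folds of -0.34 and -0.45. Magef1 (chr16:21331900-21333356, minus strand), which in human works with a RING ligase on an iron-sulphur assembly factor, was at 0.80, 1.04 and 1.45 CPM with 36, 20 and 30 reads, and Magee2 (chrX:104854952-104857267, minus strand) at 0.58, 0.99 and 1.35 CPM with 26, 19 and 28 reads. On the plain ratio Magee2 lay past 2-fold in TKO_602 against TKO, at a log2 of -1.22 (interval -2.43 to -0.02), and it passed downward with a pseudocount of 0.1 CPM. The order TKO_602, TKO_FL, TKO was also the order of level, low to high, for Magee1, Magee2 and Magef1. For each of them the intervals of TKO_FL against either other library included 0, so its middle place is within counting error. The TKO_602 over TKO interval also included 0 for Magef1 (-1.92 to 0.24) and Mageh1 (-0.79 to 0.03).

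The Magea and Mageb genes, the testis-type group, were low throughout. Mageb16 (chrX:79623231-79671435, minus strand), known from mouse embryonic stem cells and testis, was the highest at 13.4 CPM in TKO_602, 11.0 CPM in TKO_FL and 13.1 CPM in TKO, and its intervals include 0 in all comparisons. Mageb4 (chrX:86250256-86256219, minus strand), a germ cell gene, was at 2.34, 0.88 and 2.61 CPM and had only 17 reads in TKO_FL, against 54 in TKO. Its log2 fold was -0.11 in TKO_602 and -0.94 in TKO_FL against TKO, so TKO_FL was the low library.

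The measured Magea genes did not share this, and by level TKO_FL was the highest library for 3 of 4. Magea5 (chrX:155053061-155061553, minus strand) was at 2.19, 4.78 and 3.33 CPM in TKO_602, TKO_FL and TKO, Magea8 (chrX:154985775-154995850, minus strand) at 1.36, 2.70 and 1.40 CPM, and Magea2 (chrX:155027201-155033292, minus strand) at 0.31, 1.04 and 0.43 CPM. Magea2 rests on 14, 20 and 9 reads. For Magea5, Magea8 and Magea2 the TKO_FL over TKO intervals were -0.15 to 1.20, -0.03 to 1.99 and -0.47 to 3.26, and all included 0. Their TKO_602 over TKO_FL intervals lay below 0, at -1.74 to -0.52, -1.79 to -0.18 and -3.37 to -0.19. Magea4 (chrX:72222017-72222964, plus strand) was at 2.19, 3.12 and 3.43 CPM, highest in TKO. The Magea genes summed to 7.68 CPM in TKO_602, 12.6 CPM in TKO_FL and 10.0 CPM in TKO. The ratios were 0.764 in TKO_602 over TKO and 1.26 in TKO_FL over TKO, and no measured member passed 2-fold in these comparisons. On the log2 scale the intervals of these sums were -0.75 to -0.02 and -0.06 to 0.72, so the second included 0. Magea2 and Magea8 promoter windows were 92.6% identical over 285 bases. The likeness of their exons was not measured, so whether reads map to both of these genes is not known.

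**Figure D5:**
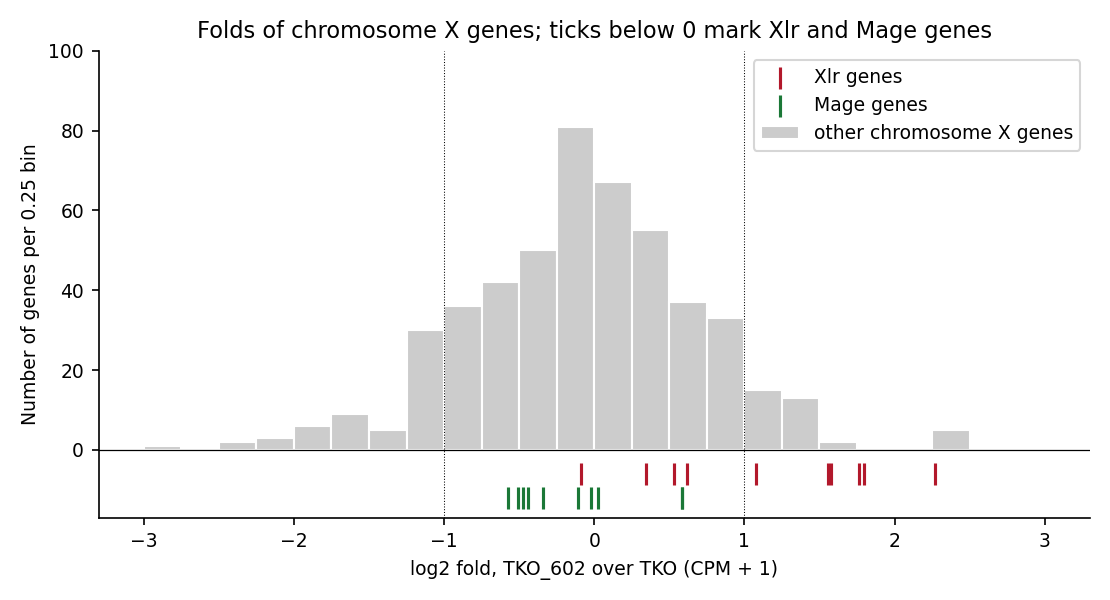
Histogram of log2 fold (CPM + 1) of TKO_602 over TKO for chromosome X genes in bins of 0.25, with the Xlr genes and the Mage genes that lie on X as ticks under it and 2-fold as dotted lines. Xlr ticks reach 2.27, and the Mage ticks lie between -0.57 and 0.59.

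Levels per kb of exon allow genes to be set against each other within a library. Maged1 led at 79.1 CPM per kb in TKO_602, 53.3 in TKO_FL and 52.7 in TKO. Xlr3a followed at 52.7, 23.1 and 15.1 CPM per kb. Xlr3c stood at 36.3, 11.2 and 10.0 and Xlr3b at 14.8, 14.9 and 9.44, so Xlr3c was above Xlr3b in TKO_602 and TKO and below it in TKO_FL. Maged2 came next in TKO_602 at 13.0 CPM per kb, with 8.78 in TKO_FL and 8.52 in TKO, and Mageb16 stood at 6.87, 5.66 and 6.72. The order of the Xlr5 copies per kb, with Xlr5c at 11.2, 6.74 and 2.59, Xlr5b at 10.9, 2.20 and 3.07 and Xlr5a at 8.24, 2.93 and 1.23, did not follow their CPM. Copies lose unequal numbers of reads, so this order is uncertain among the Xlr genes.

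Related gene lists were described in the same way. Beside these list counts and the marker counts below stand the shares over all measured genes. In TKO_602 against TKO, 11.0% were higher and 8.06% lower. The shares were 3.24% and 2.50% in TKO_FL against TKO, and 6.75% and 4.87% in TKO_602 against TKO_FL. Of the other MAGE homology genes (Magel2, Ndn, Nsmce3 and Tro), 0 were 2-fold higher and 1 was 2-fold lower in TKO_602 against TKO, with a median log2 fold of -0.68. Magel2, an imprinted gene of the Prader-Willi region, was the lower one, at 0.94 CPM in TKO_602, 3.28 CPM in TKO_FL and 3.33 CPM in TKO. Ndn (necdin), from the same imprinted region, was at 15.3, 26.5 and 30.8 CPM. In TKO_FL against TKO 0 of the 4 passed.

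Among 16 genes of MAGE partner ligases, the SMC5/6 complex and the deubiquitinase Usp7, 1 of 15 measured was 2-fold higher and 1 lower in TKO_602 against TKO. Lnx1, a ligase gene, was at 14.2, 7.28 and 5.99 CPM in TKO_602, TKO_FL and TKO. Trim28, the co-repressor and ligase that human MAGE proteins bind, was at 1101, 1753 and 2337 CPM. In TKO_FL against TKO 0 of 16 passed. Smc5, Smc6, Trim27 and Usp7 had log2 folds of 0.45, -0.03, -0.18 and -0.15 in TKO_602 against TKO.

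Sycp3, the meiotic chromosome gene with the Cor1 domain that Xlr proteins share, was at 15.4 CPM in TKO_602, 9.15 CPM in TKO_FL and 2.03 CPM in TKO, with log2 folds of 2.44 and 1.75. It exceeded 2-fold in both comparisons. The only other measured Cor1 relative, 3830403N18Rik, was low and had the opposite sign, with 2 reads in TKO_602, 1 in TKO_FL and 21 in TKO and log2 folds of -0.95 and -0.94, short of 2-fold on the CPM + 1 scale. Slx, Slxl1 and Sly were at 0 reads in all libraries. In TKO_602 against TKO, 19 of 51 other X-linked testis or germ cell genes were measured. Of these, 1 was 2-fold higher (Fthl17f, at 5.07, 2.70 and 1.59 CPM) and 6 were lower (Nxf2, Nxf3, Nxf7, Tktl1, Dcaf8l and Spin2c). Their median log2 fold was -0.26. Among chromosome X genes that are not members, 7.11% were higher and 11.4% lower. In TKO_602 against TKO_FL, 0 of 18 measured genes of this list were higher and 4 were lower. In TKO_FL against TKO 1 of 17 was higher, Usp26 at 73.5 CPM in TKO_FL and 28.0 CPM in TKO, and 1 was lower, Nxf7 at 2.76 CPM in TKO_FL and 16.0 CPM in TKO. Of 25 widely expressed X genes, 0 were higher and 1 was lower in TKO_602 against TKO, and 2 of these 25 genes, Stag2 and Ube2a, are also in the testis list.

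Cell type markers also differed between the libraries. In TKO_602 against TKO, 10 of 11 primitive endoderm markers and 5 of 14 measured feeder markers were 2-fold lower, and in TKO_FL against TKO 11 of 11 and 6 of 14 were, where 0 Xlr genes passed. In TKO_602 against TKO_FL, where 6 Xlr genes passed, 3 of 10 measured primitive endoderm markers were 2-fold higher and 0 lower, and 2 of 14 feeder markers were higher and 2 lower. Of 7 measured germ cell markers, 2 (Sycp3 and Stra8) were 2-fold higher in both comparisons with TKO and 0 in TKO_602 against TKO_FL, and Nanos2 was at 0 in all libraries. Their part in the Xlr and Mage values was not tested.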

How the data were processed

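RNA-seq of 3 libraries, 1 per genotype, was analysed, with groups taken from the genotype labels. Tools listed in the submitters' processing notes are HISAT2, SAMtools, featureCounts, Subread and Trim Galore, with mm10 as the build. The authors' deposited gene table holds read counts, made with featureCounts 2.0.6 per the file headers, paired, unstranded, each mate counted alone, with no option for multi-mapping reads. The library kit and counting do not separate strands, so antisense reads cannot be told apart. A gene signal table deposited by the authors for TKO_FL and TKO sums to 10000000 per column and was divided by 10 to give TPM, used as an alternative. Each table has 11 columns of other libraries, not used. The deposited repeat table was not used.

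CPM used edgeR 4.0.16 TMM factors (1.04 for TKO_602, 0.983 for TKO_FL and 0.980 for TKO) in R 4.3.3, with Python 3.11.15 for the rest. Folds used a pseudocount of 1 CPM, a minimum of 1 CPM in either library and a threshold of 2-fold. Intervals used reads divided by 2, since mates were counted alone, and PCR duplicates are not removed. The fold step was tested on simulated counts, in which only genes above a set level were changed. Scaling there used the genes known to be unchanged in place of TMM factors, and no multi-mapped reads were simulated. The simulation therefore does not bear on read loss among copies or on low members. Promoters and gene positions came from RefSeq GRCm38.p6 and from the count table. All members with at least 1 CPM in a library are named with their values, as are the nearest measured neighbours of the Xlr cluster. Members and lists were chosen with earlier results of these data known. Alternatives were DESeq2 1.42.0 size factors, no TMM factor, other pseudocounts and filters, summed copies and TPM.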

Additional observations from a re-analysis of the deposited data

How the results depend on the processing

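No paired analysis was possible because each genotype has 1 library, and for the same reason none could be left out. In TKO_602 against TKO, the 6 members called became 2 units (Xlr3 and Xlr5) when reads were summed over copies, a construction with fewer units. In TKO_FL against TKO, where 0 were called, a pseudocount of 0.1 CPM called 5 (Magea2, Mageb4, Xlr4c, Xlr5a and Xlr5c) and the authors' TPM called 2 (Xlr4c and Xlr5c); the cause of the TPM calls was not tested. In TKO_602 against TKO_FL, the 6 became 3 with a pseudocount of 5 CPM (Xlr3a, Xlr3c and Xlr5b) and 3 with summed copies (Xlr3, Xlr4 and Xlr5). With a pseudocount of 0.1 CPM, TKO_602 against TKO had 7 calls (Magee2, lower, was added), of which 85.7% were higher, and TKO_602 against TKO_FL had 9, of which 77.8% were higher. DESeq2 size factors, no TMM factor and other low-value filters gave 6, 0 and 6 calls. Under the settings that can change a single gene's fold, 273 values stayed within counting error and 4 moved further. Reversal of sign was scored only for members that passed 2-fold in the main setting, and 0 of these reversed. Folds near 0 could change sign, as for Magea8 in TKO_602 against TKO, at -0.02 with and 0.02 without TMM factors. Without TMM factors the median of all genes moved to 0.12 in TKO_602 against TKO. Low-count members, such as Magea2 and Xlr4c in TKO_FL, are limited by depth.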
